A study of Mus musculus with 6 samples.

Results

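The genes described here encode the enzymes and regulators that make sterols and fatty acids. They were chosen by name as a list of 35 genes, of which 34 had a probe set among the 18193 genes tested. The list holds 18 cholesterol synthesis genes (17 measured), 6 sterol regulators and 11 fatty acid synthesis genes. Acat2 of the cholesterol list is not analysed here.

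Cells make cholesterol from acetyl-CoA through mevalonate and squalene, and fatty acids from the same precursor through malonyl-CoA. SREBP transcription factors, encoded by Srebf1 and Srebf2, switch on the genes of both pathways when sterols are scarce. Scap escorts SREBP to the Golgi for cleavage, and the Insig proteins hold it back in the endoplasmic reticulum. Dividing blood progenitors need both products for new membranes, and the mevalonate branch also supplies the lipid anchors of small GTPases.

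RNA was measured on 1 Affymetrix array per mouse in bone marrow cells that lacked lineage markers and carried cKit and Sca1 (LSK cells, a fraction with stem cells and early progenitors). The 3 N1IC mice carried a lox-stop-lox N1-IC allele together with Mx1-cre+, so that Cre removes a stop ahead of the active intracellular part of Notch1. The 3 WT mice were Mx1-cre+ without that allele. All were 5 weeks old, had been given 3 polyIC injections of 20 mcg/g from day 21 of age, and were taken 2 weeks after the last one. polyIC induces Cre from the Mx1 promoter, which answers to interferon and is not limited to stem cells, so both groups carry Cre and had the same injections. The treatment description speaks of Ncstn flox/flox mice, which the genotype labels do not mention, and the groups follow the genotype labels. All 3 N1IC mice were female, as was WT replicate 2, while the other 2 WT mice were male, so sex and genotype are largely confounded. Values are log2 intensities, and log2 fold changes are given as N1IC minus WT, from group means. Across arrays the log2 values of all probe sets other than controls correlated at 0.9901 to 0.9916 among N1IC arrays and 0.9851 to 0.989 among WT arrays. Between the groups they correlated at 0.9679 or more.

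The comparison asks how RNA of the genes of the 2 lipid pathways differs between LSK cells of N1IC and WT mice. Of the 34 measured genes, 5 rose in N1IC and none fell, at an adjusted p below 0.05 by limma. Over all 18193 genes tested, 3.47% rose and 8.31% fell, 11.8% in all. The genes that rose were Mvd, Fdps, Cyp51 and Msmo1 of cholesterol synthesis and the fatty acid desaturase Fads2, by 1.39-fold to 1.70-fold. By list, 4 of 17 cholesterol synthesis genes, 0 of 6 sterol regulators and 1 of 11 fatty acid synthesis genes rose. An unadjusted p below 0.05 was reached by 16 of the 34 genes, 2 of them sterol regulators, and by 4833 of the 18193 genes tested. All N1IC arrays lay above all WT arrays for 12 genes and below them for 7, and over all genes tested the groups did not overlap for 32.8%. The call of Fads2 held without any single array, whereas at least 1 of the cholesterol synthesis calls was lost without any single array other than N1IC replicate 1. With sex as a covariate, a fit that sets N1IC against WT replicate 2 alone, none of the 5 passed, and all kept a positive log2 fold change, between 0.39 and 0.78.

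The promoters of 4 of the genes that rose were available from RefSeq (GRCm38.p6), together with that of Hmgcs1, the only listed gene whose window held the sterol regulatory element searched for. They are shown so that the control regions of the genes that moved can be read beside their values. Each runs from 250 bases before the gene's start to 50 bases after it, and capitals mark CCAAT, the NF-Y box, on either strand (CCAAT or ATTGG). In Hmgcs1 capitals also mark the sterol element. The windows are chr8:122443373-122443672 (minus strand) for Mvd, chr5:4104648-4104947 (minus strand) for Cyp51, chr8:64733529-64733828 (minus strand) for Msmo1, chr19:10101454-10101753 (minus strand) for Fads2 and chr13:119690101-119690400 (plus strand) for Hmgcs1.
Mvd: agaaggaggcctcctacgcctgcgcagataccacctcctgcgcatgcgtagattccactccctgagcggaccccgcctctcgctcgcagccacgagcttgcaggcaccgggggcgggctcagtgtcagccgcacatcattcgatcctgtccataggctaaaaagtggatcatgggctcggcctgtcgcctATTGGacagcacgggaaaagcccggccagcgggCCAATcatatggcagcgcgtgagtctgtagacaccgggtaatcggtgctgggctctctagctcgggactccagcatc
Cyp51: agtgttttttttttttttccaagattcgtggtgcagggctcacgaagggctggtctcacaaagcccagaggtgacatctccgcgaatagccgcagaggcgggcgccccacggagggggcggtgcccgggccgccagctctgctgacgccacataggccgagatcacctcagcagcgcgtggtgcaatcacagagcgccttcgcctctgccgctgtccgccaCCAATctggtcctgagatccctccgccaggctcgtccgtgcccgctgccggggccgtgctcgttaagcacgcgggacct
Msmo1: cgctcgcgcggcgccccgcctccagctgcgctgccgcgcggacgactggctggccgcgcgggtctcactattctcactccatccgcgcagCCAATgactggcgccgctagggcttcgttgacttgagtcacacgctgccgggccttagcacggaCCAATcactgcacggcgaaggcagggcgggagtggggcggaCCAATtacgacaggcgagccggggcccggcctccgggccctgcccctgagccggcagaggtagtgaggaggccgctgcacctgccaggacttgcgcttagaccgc
Fads2: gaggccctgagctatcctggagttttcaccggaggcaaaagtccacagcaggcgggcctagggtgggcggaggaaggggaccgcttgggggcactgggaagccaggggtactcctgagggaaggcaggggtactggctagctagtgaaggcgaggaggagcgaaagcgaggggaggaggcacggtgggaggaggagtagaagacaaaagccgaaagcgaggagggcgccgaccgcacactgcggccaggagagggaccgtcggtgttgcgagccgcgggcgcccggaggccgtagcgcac
Hmgcs1: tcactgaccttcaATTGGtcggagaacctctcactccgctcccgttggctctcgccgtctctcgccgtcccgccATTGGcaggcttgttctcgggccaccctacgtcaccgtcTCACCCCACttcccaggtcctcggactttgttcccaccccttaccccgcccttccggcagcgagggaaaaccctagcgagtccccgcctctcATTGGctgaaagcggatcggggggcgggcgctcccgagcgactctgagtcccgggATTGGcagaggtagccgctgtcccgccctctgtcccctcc

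Motifs were searched on both strands in such windows for 28 of the 35 listed genes and for 27025 genes in all. The sterol regulatory element TCACNCCAC was found in 1 of 28 listed genes, Hmgcs1, where its first base is at position -137 from the start, and in 1.44% of all genes. Only this string, with N as any base, was searched, so variants of the element were not counted. CCAAT was found in 14 of 15 cholesterol synthesis genes, 4 of 5 sterol regulators and 5 of 8 fatty acid synthesis genes, against 41.1% of all genes. Msmo1 held 3 copies, Mvd 2, Cyp51 1 and Hmgcs1 4, and the Fads2 window held none. No CCAAT copy in these windows overlapped another of the motifs searched. The Sp1 box GGGCGG was found in 14 of 15 cholesterol synthesis genes, 5 of 5 sterol regulators and 4 of 8 fatty acid synthesis genes, against 38.2% of all genes. The E-box CACGTG was in 6 of the 28 genes and in 8.09% of all genes, and the core motif TGGGAA of the Notch partner RBPJ was in 9 of the 28 and in 28.3% of all genes. Among the 4 genes shown that rose, TGGGAA was in Fads2 alone, and the Hmgcs1 window held 2 copies. A motif in a window is a description of its letters and not a sign of binding.

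In the first part of cholesterol synthesis, which runs from acetyl-CoA to farnesyl diphosphate, Mvd and Fdps rose. Mvd, which removes a carboxyl group to form isopentenyl diphosphate, stood at 8.64, 8.98 and 9.03 in N1IC, against 8.03, 8.40 and 8.32 in WT. The groups did not overlap, and N1IC replicate 1 was the lowest N1IC array. Mvd was 1.56-fold higher in N1IC (log2 fold change 0.64 ± 0.15, SE, n = 3 each, adjusted p = 0.0466), and its second probe set gave 0.55. Fdps, which builds farnesyl diphosphate, the branch point towards sterols and protein prenylation, stood at 10.71, 11.03 and 10.95 in N1IC, against 10.28, 10.51 and 10.27 in WT. It was 1.45-fold higher (0.54 ± 0.12, adjusted p = 0.0394). For both genes the highest WT array was WT replicate 2, the female. Without WT replicate 1, 2 or 3 or N1IC replicate 2 or 3, both calls were lost, at an adjusted p between 0.0529 and 0.136.

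Hmgcs1, which makes HMG-CoA at the entry of the pathway, stood at 13.15, 13.13 and 13.20 in N1IC, against 12.87, 12.91 and 12.95 in WT on its brightest probe set. All N1IC arrays lay above all WT arrays, a pattern that 13.1% of all genes tested showed. The log2 fold change was 0.25 (95% interval 0.08 to 0.42, adjusted p = 0.0735), which did not pass. It passed over the brighter 60% of genes (adjusted p = 0.0488), with an intensity trend (0.00623) and with its probe sets averaged (log2 fold change 0.67, adjusted p = 0.0128). Its other 4 probe sets gave 0.46, 0.49, 0.98 and 1.18, and 3 of them passed when each probe set was tested on its own. The probe set at 0.98 stood at 11.40, 11.55 and 11.54 in N1IC, against 10.71, 10.33 and 10.51 in WT, with an adjusted p of 0.00753. Of all 34 genes only Hmgcs1 and Scap had a probe set other than the brightest that passed while the brightest did not.

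The kinases and the isomerase between these steps did not pass. Mvk, mevalonate kinase, had a log2 fold change of 0.22 (95% interval -0.11 to 0.56), and Pmvk, phosphomevalonate kinase, had -0.23 (-0.58 to 0.12). Both had N1IC and WT arrays that overlapped. Idi1, which isomerises isopentenyl diphosphate, stood at 11.73, 12.03 and 11.88 in N1IC, against 11.69, 11.51 and 11.71 in WT, a difference of 0.25 (-0.02 to 0.51). The lowest N1IC array was just above the highest WT array, and the adjusted p was 0.217.

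In the second part, from squalene to cholesterol, Cyp51 and Msmo1 rose. Cyp51, the lanosterol demethylase, stood at 10.39, 10.68 and 10.65 in N1IC, against 10.03, 9.79 and 9.79 in WT. Every N1IC array was above every WT array, and it was 1.63-fold higher (0.70 ± 0.12, adjusted p = 0.0178). Its other 2 probe sets gave 0.56 and 0.65 without passing. The call was lost without WT replicate 2 or 3 or N1IC replicate 2 or 3, at an adjusted p between 0.0587 and 0.0652. Msmo1, the methylsterol oxidase that acts after Cyp51, stood at 9.89, 10.23 and 10.15 in N1IC, against 9.63, 9.54 and 9.69 in WT. It was 1.39-fold higher (0.47 ± 0.11, adjusted p = 0.0465), with no overlap between the groups on this probe set. Its other probe set gave 0.17, with groups that overlapped. Without any single array other than N1IC replicate 1 its adjusted p lay between 0.0938 and 0.138.

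**Figure D1:**
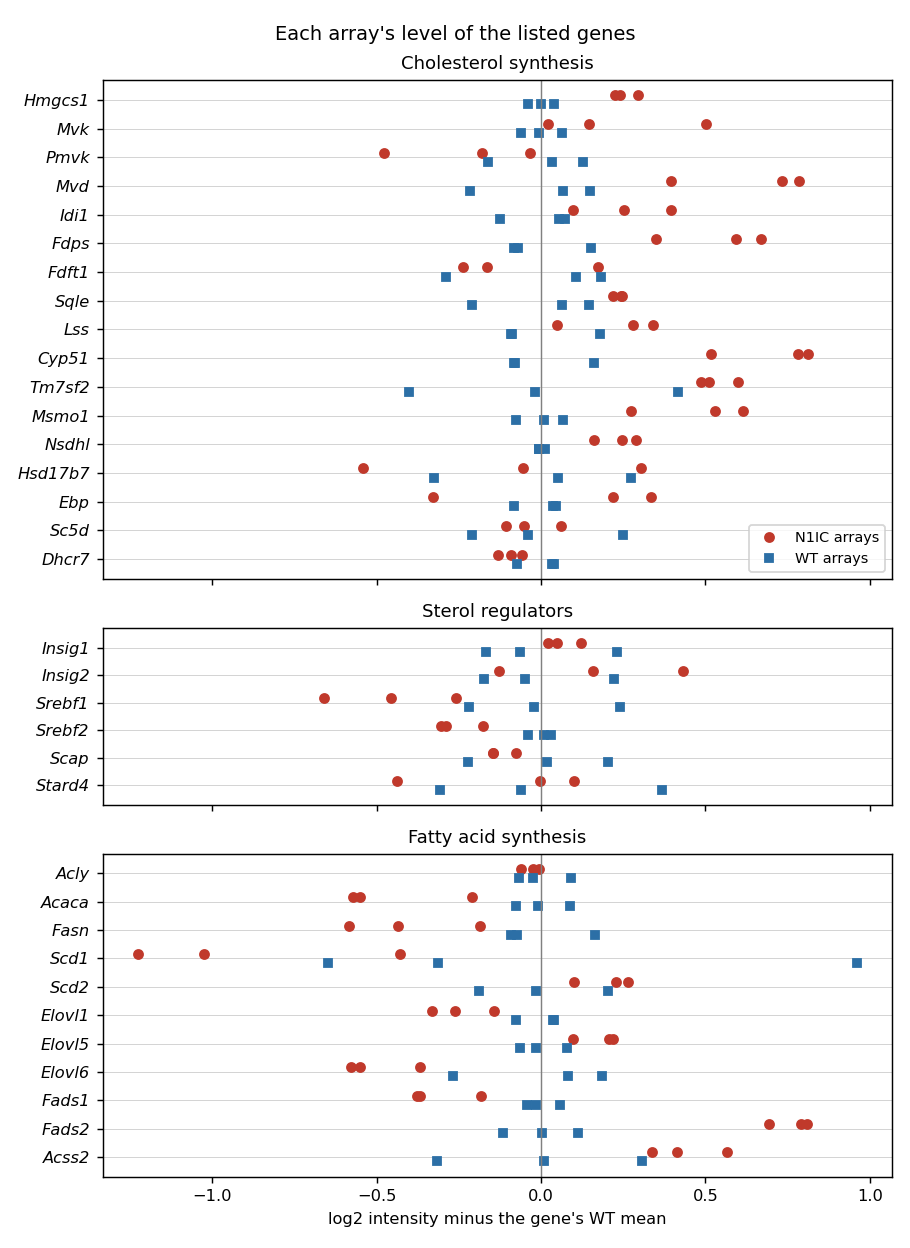
Log2 intensity of each measured gene on each array, less the gene's WT mean (x axis), for the 3 N1IC arrays (circles) and the 3 WT arrays (squares), in 3 panels by list. All N1IC arrays lie to the right of all WT arrays for 9 of 17 cholesterol synthesis genes and for none to the left, while 5 of 11 fatty acid synthesis genes have all N1IC arrays to the left.

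Among the other late enzymes, 3 had all N1IC arrays above all WT arrays without passing. Sqle, squalene epoxidase, stood at 10.25, 10.25 and 10.22 in N1IC, against 10.15, 10.07 and 9.80 in WT (0.24, 95% interval -0.03 to 0.50). Nsdhl, a sterol dehydrogenase, stood at 9.80, 9.93 and 9.88 in N1IC, against 9.63, 9.65 and 9.63 in WT (0.23, 0.06 to 0.41, adjusted p = 0.101). Tm7sf2, a sterol reductase, stood at 8.95, 8.97 and 9.06 in N1IC, against 8.06, 8.88 and 8.45 in WT (0.53, 0.03 to 1.03). The spread of its WT arrays was wider than this difference, and without WT replicate 2, the highest of them, Tm7sf2 passed at an adjusted p of 0.0435.

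For the remaining late enzymes the groups overlapped. Lss, which closes the sterol rings, had a log2 fold change of 0.22 (95% interval -0.07 to 0.52). Fdft1, squalene synthase, had -0.08 (-0.49 to 0.34), and Ebp, a sterol isomerase, had 0.07 (-0.37 to 0.52). The ketoreductase Hsd17b7 had -0.10 (-0.72 to 0.52), with N1IC arrays spread over 9.54, 9.18 and 8.69. Sc5d, a sterol desaturase, and Dhcr7, which catalyses the final reduction, had -0.03 (-0.36 to 0.29) and -0.09 (-0.27 to 0.09). Genes that did not pass lay before, between and after the 4 called higher. Among them, Hmgcs1, Idi1, Sqle, Nsdhl and Tm7sf2 had all N1IC arrays above all WT arrays. Which genes passed also changed when single arrays were left out, so not passing does not set these steps apart.

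None of the 6 sterol regulators passed the test in either direction. Srebf2, whose protein acts mainly on cholesterol genes, stood at 12.07, 12.18 and 12.05 in N1IC, against 12.36, 12.32 and 12.39 in WT. Srebf1, whose protein acts mainly on fatty acid genes, stood at 10.07, 10.28 and 10.47 in N1IC, against 10.71, 10.51 and 10.97 in WT. On these probe sets all N1IC arrays were below all WT arrays for both, as for 19.7% of all genes tested. The log2 fold changes were -0.26 (95% interval -0.44 to -0.07, adjusted p = 0.0849) for Srebf2 and -0.46 (-0.84 to -0.07, adjusted p = 0.129) for Srebf1. Srebf2 passed only with an intensity trend in the prior, at an adjusted p of 0.0233. Its second probe set gave -0.08 with groups that overlapped, at 10.81, 10.87 and 10.87 in N1IC, against 11.04, 10.87 and 10.88 in WT.

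Insig1, itself a target of SREBP, stood at 12.16, 12.19 and 12.26 in N1IC, against 12.37, 11.97 and 12.08 in WT. Its N1IC arrays lay within the WT range, with a log2 fold change of 0.06 (95% interval -0.23 to 0.36). Insig2 had 0.15 (-0.27 to 0.58) on its brightest probe set and negative values on the other 2, -0.44 and -0.37. Stard4, which carries cholesterol between membranes, had -0.11 (-0.65 to 0.42), with all 3 probe sets negative. Scap stood at 10.89, 10.89 and 10.96 in N1IC, against 10.82, 11.06 and 11.24 in WT, and did not pass (-0.12, -0.42 to 0.17). A dimmer Scap probe set stood at 6.23, 5.95 and 6.17 in N1IC, against 4.76, 4.66 and 3.91 in WT, a log2 fold change of 1.67 that passed at an adjusted p of 0.0114 over all probe sets. The 2 Scap probe sets thus differ in sign and call, and which transcripts each detects was not examined.

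Among fatty acid synthesis genes, Fads2 rose and none fell. Fads2, the desaturase that starts the conversion of essential fatty acids to longer polyunsaturated ones, stood at 12.06, 12.17 and 12.16 in N1IC, against 11.25, 11.48 and 11.37 in WT. The groups were far apart relative to the spread within each, and Fads2 was 1.70-fold higher (0.76 ± 0.09, adjusted p = 0.00545). All 3 of its probe sets passed, at log2 fold changes of 0.76, 0.76 and 1.32. With sex as a covariate it stood at 0.65 with an adjusted p of 0.071.

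Fads1, the partner desaturase and the next protein-coding gene to Fads2 on chromosome 19, was on the other side of zero. It stood at 10.39, 10.57 and 10.38 in N1IC, against 10.81, 10.74 and 10.71 in WT. All N1IC arrays were lower, but the log2 fold change of -0.31 (95% interval -0.52 to -0.10, adjusted p = 0.0778) did not pass, and a dimmer probe set gave 0.52. The difference between these 2 genes was not tested.

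The enzymes that build saturated chains did not pass, and 3 of them had all N1IC arrays below all WT arrays on the brightest probe set. Acaca, acetyl-CoA carboxylase, which commits carbon to fatty acids, stood at 10.19, 10.22 and 10.56 in N1IC, against 10.69, 10.85 and 10.76 in WT (-0.44, 95% interval -0.74 to -0.15, adjusted p = 0.0735). Fasn, fatty acid synthase, stood at 10.92, 10.78 and 11.17 in N1IC, against 11.27, 11.29 and 11.52 in WT (-0.40, -0.72 to -0.08, adjusted p = 0.117). Elovl6, which extends palmitate, stood at 10.24, 10.04 and 10.06 in N1IC, against 10.80, 10.70 and 10.35 in WT (-0.50, -0.84 to -0.16, adjusted p = 0.0771). Acaca passed as lower without N1IC replicate 3 and Elovl6 without WT replicate 3, at an adjusted p of 0.0348 and 0.038. A dimmer Acaca probe set had the opposite sign, 0.74, and did not pass. The dimmer Elovl6 probe sets gave -0.12 and -0.23, with groups that overlapped on each.

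The suppliers of acetyl-CoA differed from each other. Acss2, which makes it from acetate, stood at 10.80, 10.95 and 10.72 in N1IC, against 10.39, 10.07 and 10.69 in WT (0.44, 95% interval 0.02 to 0.85, adjusted p = 0.168), and its 3 probe sets were all positive. Acly, which makes it from citrate, had -0.03 (-0.22 to 0.16), and its N1IC arrays lay within the WT range.

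The remaining elongases and the stearoyl-CoA desaturases, which place the first double bond, did not pass either. Elovl5, an elongase of polyunsaturated chains, stood at 13.15, 13.14 and 13.03 in N1IC, against 13.01, 12.92 and 12.87 in WT (0.17, 95% interval -0.02 to 0.37). Elovl1, an elongase of very long chains, stood at 11.63, 11.56 and 11.74 in N1IC, against 11.81, 11.93 and 11.92 in WT (-0.25, -0.45 to -0.04), with all 4 probe sets negative. Scd2, the form known from many non-hepatic mouse tissues, had 0.20 (-0.10 to 0.49) on its brightest probe set and 0.61 and 0.92 on the others, none of which passed. Scd1 stood at 6.71, 7.51 and 6.91 in N1IC, against 8.90, 7.62 and 7.29 in WT. WT replicate 1 was far above the other WT arrays, and the log2 fold change was -0.89 (-1.99 to 0.20) with it and -0.41 without it.

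**Figure D2:**
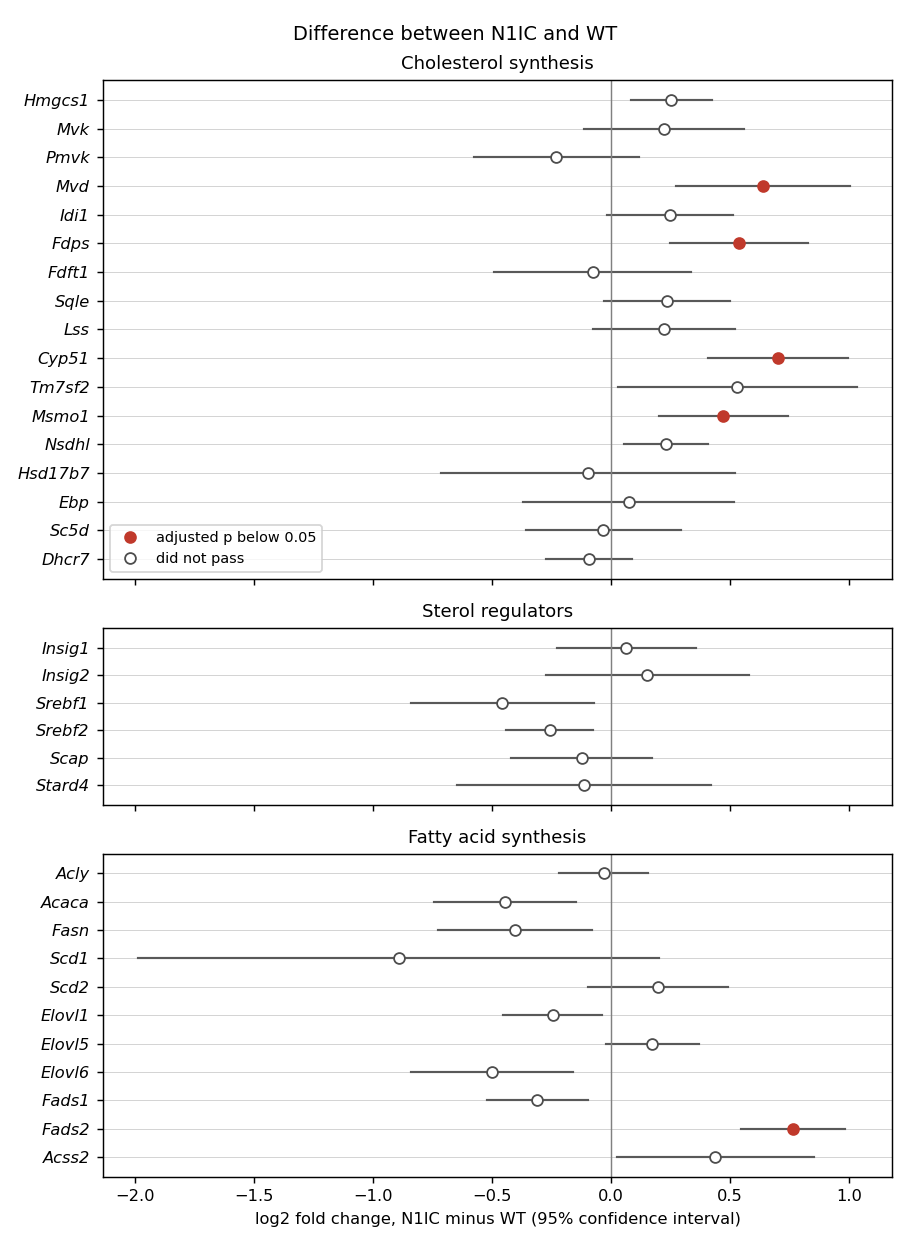
Log2 fold change of each measured gene, N1IC minus WT (x axis), with its 95% confidence interval from limma (lines), in 3 panels by list. Filled points mark the 5 genes with an adjusted p below 0.05, from 0.47 for Msmo1 to 0.76 for Fads2, and Scd1 has the widest interval.

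Set side by side, the 3 lists had different medians. The median log2 fold change was 0.23 over the 17 cholesterol synthesis genes, with 12 positive and 5 negative values. It was -0.12 over the 6 sterol regulators, with 2 positive and 4 negative, and -0.25 over the 11 fatty acid synthesis genes, with 4 positive and 7 negative. Over all genes tested the median was -0.01. All N1IC arrays were above all WT arrays for 9 cholesterol synthesis, 0 regulator and 3 fatty acid synthesis genes, and below for 0, 2 and 5, and over all genes these patterns made up 13.1% and 19.7%. When each gene's probe sets were averaged, the fatty acid median was 0.10 and the cholesterol median 0.23, so the sign of the fatty acid median depends on the probe set rule. These values describe the lists, and no test was made between them.

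**Figure D3:**
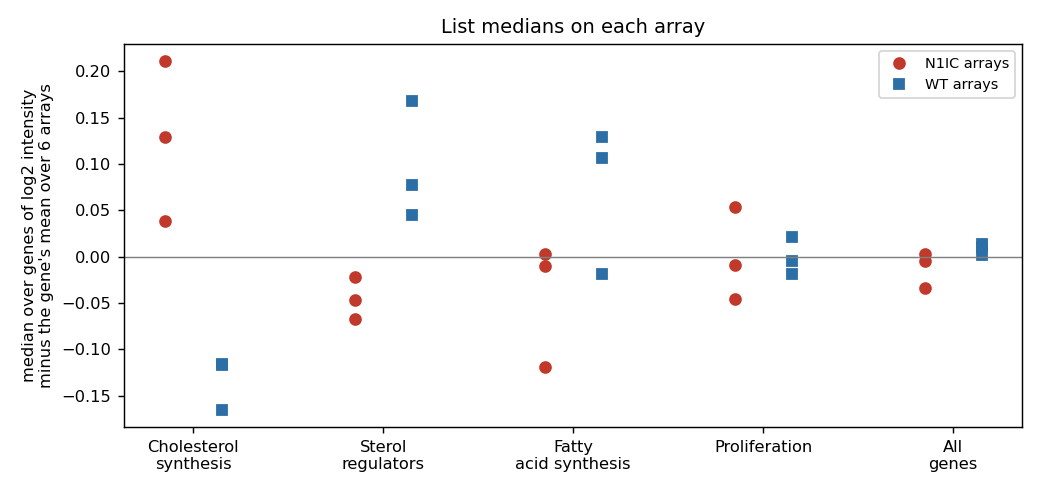
For each list and array, the median over genes of the log2 intensity less the gene's mean over the 6 arrays (y axis), with N1IC arrays as circles and WT arrays as squares. N1IC arrays lie between 0.04 and 0.21 and WT arrays between -0.17 and -0.12 for cholesterol synthesis, whereas proliferation genes lie between -0.05 and 0.05 in N1IC and between -0.02 and 0.02 in WT.

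N1IC replicate 1 had the lowest N1IC value for 13 of 17 cholesterol synthesis genes and for all 5 genes that rose, while it was the lowest N1IC array for 40.3% of all genes tested. Among WT arrays, replicate 1 was the lowest for 7 of 17 cholesterol synthesis genes (41.2%), near its share of 36.7% over all genes.

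Of the 25 genes with more than 1 probe set, 10 had only positive and 5 only negative log2 fold changes, and 10 had both signs, namely Fdps, Fdft1, Lss, Hsd17b7, Sc5d, Insig2, Scap, Acly, Acaca and Fads1. When each probe set was tested on its own, the brightest ones of Mvd and Msmo1 no longer passed (adjusted p = 0.0533 and 0.0557), while those of Fdps, Cyp51 and Fads2 did. With the probe sets of a gene averaged, Fads2 alone of the 5 passed, at an adjusted p of 0.00345, and the other 4 had an adjusted p between 0.054 and 0.567. Among the genes that rose, Fads2, Cyp51, Mvd and Msmo1 had only positive values. The second Msmo1 probe set, at 0.17, stood at 8.75, 6.87 and 8.53 in N1IC, against 6.80, 8.46 and 8.38 in WT. Fdps had 0.54 on the probe set used and -0.05 on the other. This dim Fdps probe set stood at 3.14 to 3.37 in N1IC, against 3.29 to 3.42 in WT.

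**Figure D4:**
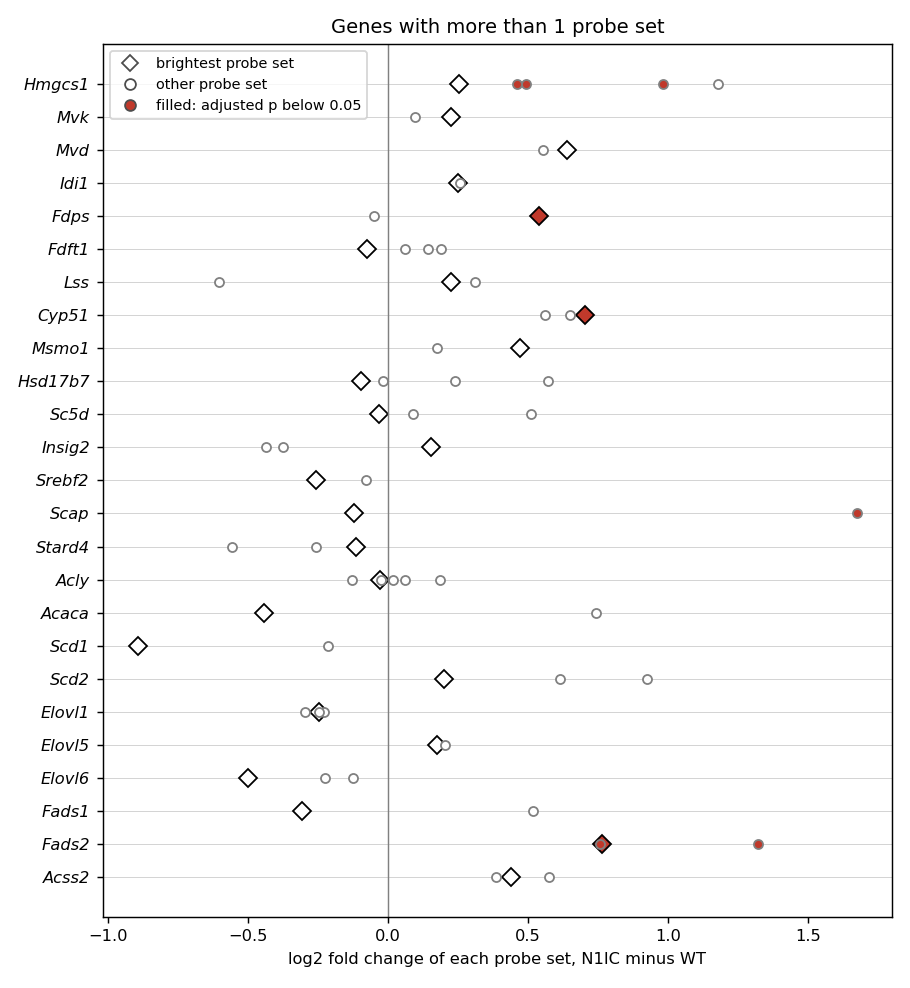
Log2 fold change, N1IC minus WT (x axis), of every probe set of the 25 genes with more than 1, with diamonds for the brightest and circles for the others. Filled symbols passed when each probe set was tested on its own, which includes 3 of 5 for Hmgcs1, 3 of 3 for Fads2 and the dimmer of 2 for Scap, but none for Mvd or Msmo1.

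Other genes around these pathways were counted from further lists, and over all genes tested 3.47% rose and 8.31% fell. Of 9 other measured genes of sterol control and synthesis, 2 fell and none rose: Acat1, a mitochondrial thiolase (-0.36 ± 0.07, adjusted p = 0.0326), and Erlin1, which takes part in sterol-regulated protein turnover in the endoplasmic reticulum (-0.40 ± 0.09, adjusted p = 0.0422). Of 13 genes of the isoprenoid branch, Ggps1 alone was called. Ggps1, which makes geranylgeranyl diphosphate from farnesyl diphosphate, stood at 10.35, 10.40 and 10.30 in N1IC, against 9.99, 10.07 and 9.93 in WT, and rose by 0.35 ± 0.08 (adjusted p = 0.0382).

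Of 13 genes of sterol efflux and handling, 3 fell (23.1%, against 8.31% of all genes tested) and none rose. Apoe, an apolipoprotein, stood at 9.46, 8.32 and 9.08 in N1IC, against 10.84, 11.07 and 10.49 in WT (-1.85 ± 0.31, adjusted p = 0.0175). Cyp27a1, a sterol hydroxylase, had -1.59 ± 0.30 (adjusted p = 0.0243), and Osbpl3, an oxysterol-binding family member, had -1.43 ± 0.13 (adjusted p = 0.00281).

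Of 23 other genes of fatty acid synthesis and elongation, 2 fell (8.7%) and 1 rose (4.35%). These shares were near those over all genes tested, 8.31% and 3.47%. Slc25a1, which exports citrate from mitochondria for Acly, averaged 9.48 ± 0.018 in N1IC and 10.10 ± 0.085 in WT (SD, n = 3 each; log2 fold change -0.62 ± 0.08, adjusted p = 0.00649). The elongase Elovl7 fell by 1.39 ± 0.33 on the log2 scale (adjusted p = 0.0479), and Mecr, a reductase of mitochondrial fatty acid synthesis, rose by 0.50 ± 0.09 (adjusted p = 0.0195). Of 18 lipid assembly genes, 2 acyltransferases fell (11.1%) and none rose. Lpcat1 fell by 0.79 ± 0.09 (adjusted p = 0.00512) and Agpat2 by 0.78 ± 0.14 (adjusted p = 0.0207). Of 23 fatty acid oxidation genes, 1 rose (4.35%), the dehydrogenase Acadl (0.56 ± 0.13, adjusted p = 0.0459), and none fell.

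Markers of cell state and of other cells were read on the same arrays, where 3.47% of all genes tested rose and 8.31% fell. Of 19 proliferation genes none passed by limma, with 1 at an unadjusted p below 0.05 and a median log2 fold change of -0.01. The defining LSK gene Kit stood between 11.45 and 11.57 in N1IC and between 11.58 and 11.94 in WT, and 4 of 6 LSK markers fell, among them Cd34 (-0.62) and Flt3 (-3.08). Of 8 T-lineage markers 6 rose, with a summed intensity over the 8 between 22681 and 28194 in N1IC and between 713 and 2470 in WT. The other 2, Cd4 (-0.62) and Cd8a (-1.18), had negative log2 fold changes and did not pass. Of 10 macrophage markers 2 rose, C1qb and C1qc, with sums over the 10 between 1173 and 2350 in N1IC and between 930 and 1402 in WT. Of the 10 log2 fold changes, 7 were positive and 3 negative: Mrc1 (-0.64), Vcam1 (-0.50) and Axl (-0.30). Of 8 neutrophil markers 1 fell, Cxcr2, though all 8 had negative log2 fold changes (median -1.45) and 6 an unadjusted p below 0.05. Their sums were 24733, 30346 and 37108 in N1IC, against 31484, 78416 and 76410 in WT, so WT replicate 1 lay within the N1IC range. Of 6 B-lineage markers 5 fell, and of 5 erythroid and 5 adipocyte or stroma markers none passed by limma, with 1 and 2 at an unadjusted p below 0.05. The part of these markers in the lipid gene results was not tested. In such bulk samples, fewer cells of a type and less RNA per cell cannot be told apart.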

How the data were processed

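RNA of 3 N1IC and 3 WT samples was hybridised to 1 array each, after amplification of 5 ng per sample per the labels' protocols. The deposited intensity values are linear, which was settled from their range, and the authors made them with RMA per the submitters' processing notes; its version is not given in the sources used here. Log2 was taken before any test. Of 45101 probe sets, 34945 had 1 gene symbol in GEO's platform annotation, updated by gene ID through RefSeq GRCm38.p6 (34741 found), 932 had several, 9160 had none and 64 were controls. The brightest probe set, by mean log2 over the 6 arrays, stood for each of 18193 genes. The comparison used limma 3.58.1 under R 4.3.3 (lmFit, eBayes, two-sided, Benjamini-Hochberg over all genes, threshold 0.05, no covariate), a procedure tested on simulated data. Depth has no meaning here, and the 6 arrays limit the precision. No detection calls or scanner files were used here, so whether a dim probe set was above background is unknown. The labels name a mouse as the source of each sample and give no batch, and whether any were littermates across groups is not stated. The members and lists were chosen with earlier results of these data known, so they give no independent support. All 34 measured members are named, including those whose probe sets differ in sign, with up to 4 called genes of each other list by smallest p. Promoters on chromosome 18 were left out, and those printed were picked after the values were seen, since none of the called genes met the rule set for printing. Protein sequences were not used here. Alternatives were a block for the replicate number, a sex covariate, female arrays only, a repeated quantile normalization, median centring, the brighter 60% of genes, the mean of all probe sets, each probe set alone, an intensity trend, a robust prior, array weights, and leaving out each array.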

Additional observations from a re-analysis of the deposited data

How the results depend on the processing

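Against 5 genes higher with all arrays, 2 were higher with the replicate number as a block, 0 with sex as a covariate or female arrays only, 3 with the mean of all probe sets, and 1 to 5 without 1 array. For cholesterol synthesis, 4 higher became 1, 0, 0, 1 and 0 to 4 under the same settings in that order. With the mean of all probe sets none of these 4 passed, and the 3 genes higher were Hmgcs1, Scap and Fads2. Without WT replicate 2 the 1 cholesterol synthesis gene higher was Tm7sf2, and without WT replicate 1 it was Cyp51. For fatty acid synthesis, 1 higher became 0 with sex as a covariate or female arrays only, and 0 to 1 were lower without 1 array, as over all listed genes. The intensity trend gave 1 sterol regulator and 1 listed gene lower (Srebf2), and the mean of all probe sets or each probe set alone gave 1 regulator higher (Scap). The median of all listed genes was 0.16 with sex as a covariate or female arrays only, 0.15 with the mean of all probe sets or each probe set alone, and 0.0071 to 0.094 without 1 array, against 0.069. The fatty acid median was 0.10 with the mean of all probe sets and 0.019 with each probe set alone, and the regulator median -0.19 in both and -0.19 to -0.056 without 1 array. Fits with female arrays set N1IC against WT replicate 2 alone, and fits without an array have fewer samples; the cause was not tested for the others. The labels do not say that replicate numbers pair the mice. With each gene's group means removed, same-numbered arrays correlated at -0.09, -0.07 and 0.07. The best other WT array for each N1IC array gave 0.072, 0.161 and 0.03, and so few arrays cannot decide on pairing. Over all genes, 357 rose and 936 fell with the replicate block, 116 and 333 with a sex covariate, 142 and 504 with female arrays only, and 332 and 835 without WT replicate 3, against 632 and 1512.

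Genes that changed sign had not passed with all arrays. With a sex covariate or female arrays only, Fdft1 stood at 0.21, Sc5d at 0.0067, Insig2 at -0.069 and Stard4 at 0.19. With the mean of all probe sets, Fdft1 stood at 0.078, Lss at -0.023, Hsd17b7 at 0.17, Sc5d at 0.19, Insig2 at -0.22, Scap at 0.78, Acly at 0.012, Acaca at 0.15 and Fads1 at 0.10. A repeated quantile normalization gave 0.002 for Sc5d. Without 1 array, log2 fold changes ranged from -0.22 to 0.015 for Fdft1, -0.30 to 0.13 for Hsd17b7, -0.055 to 0.28 for Ebp, -0.14 to 0.092 for Sc5d, -0.0198 to 0.18 for Insig1, -0.27 to 0.0699 for Stard4 and -0.065 to 0.015 for Acly. The genes that rose kept a positive sign in all 16 alternatives to the gene-level fit, and passed in 14 for Fads2, 8 for Cyp51, 7 for Fdps, 6 for Mvd and 5 for Msmo1.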

Other observations

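Among protein-coding genes on chromosome 19, Fads2 and Fads1 are direct neighbours, and Scd2 and Scd1 lie with 1 such gene between them. In both pairs the brightest probe sets had opposite signs, 0.76 for Fads2 with -0.31 for Fads1, and 0.20 for Scd2 with -0.89 for Scd1, of which only Fads2 passed. The dimmer Fads1 probe set gave 0.52, and Scd1 stood at -0.41 without WT replicate 1.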
